A study of Mus musculus with 28 samples.

Results

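A marrow fraction enriched for haematopoietic stem cells was compared with megakaryocyte-erythroid progenitors (MEP) across all genes of an expression array. The arrays were chosen by their titles: 5 were titled as HSC enriched and 3 as MEP, so 8 of the 28 arrays of the series belong here. Per the labels, both groups were mouse bone marrow cells without lineage markers (Lin-) that carried Kit. The HSC enriched cells carried Sca (sca+) and the MEP did not (sca-), and the MEP were also negative for the Fc receptor (FCR-) and for CD34. No strain, age or treatment is given for either group. About 10000 sorted cells went into each sample, and about 50 ng of total RNA was amplified and labelled. The same experiment held 4 arrays of common myeloid progenitors (CMP), 4 of granulocyte-macrophage progenitors (GMP) and 6 of leukaemic cells with the GMP phenotype (L-GMP). The other 6 arrays come from an experiment amplified on another day and were not used here. The labels name no animal or culture for a replicate, so the p-values below rest on sample-to-sample spread that may be technical.

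Haematopoietic stem cells renew themselves and give rise to every blood lineage. The Lin-, sca+, kit+ gate holds them together with multipotent progenitors, some of which already lean towards the lymphoid lineages. MEP lie downstream of CMP in the usual scheme and yield red cells and platelets, under the transcription factors GATA1 and KLF1 on the erythroid side and under GATA1, GFI1B and FLI1 on the megakaryocytic side. Red cell precursors take up iron, build haem and make globin, while stem cells are known for a slow cell cycle and low rates of protein synthesis and respiration.

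Levels are log2 values of array intensities scaled to a common mean. Values under the 25th percentile were raised to it, and this floor stands at 5.27. A log2 change is the HSC enriched mean minus the MEP mean, so that positive values are higher in HSC, and its error is the standard error (SE) from a limma fit over the 22 arrays of the experiment. A gene was called when its two-sided p, adjusted by the Benjamini-Hochberg method over all genes tested, was under 0.05. Where every array of a group was at the floor, the fold is a lower bound. Such a group has no spread and lowers the error shared by all groups. The SE and p of genes with floored groups are therefore likely too small. Levels are per cell population, so fewer cells of a type and less RNA per cell cannot be told apart, and scaling removes any difference in total RNA. The arrays correlated across genes at r from 0.937 to 0.983 within HSC, from 0.943 to 0.975 within MEP and from 0.823 to 0.908 between them, and genes are not independent replicates. The log2 ratio of 3' to 5' control signal, a measure of RNA length, was 3.09 ± 0.15 (SD, n = 5) in HSC and 3.1 ± 0.1 (SD, n = 3) in MEP (difference -0.006, exact permutation test over 56 splits, two-sided, p = 0.964, smallest possible 0.0179).

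Some arrays stood apart from their group. MEP replicate 3 was the single lowest MEP array for 393 of the 546 genes called at least 2-fold higher in HSC. It was also the highest MEP array for 134 of the 215 genes called at least 2-fold higher in MEP. Without it 1988 genes were called in place of 2772, and list counts that shift by more than 1 gene without it are given both ways below. HSC replicate 1 was low in immediate early genes, HSC replicate 3 was high in neutrophil granule genes, and HSC replicate 4 was low in the cycling marker Mki67.

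HSC enriched cells and MEP differed in 2772 of 8422 genes tested (32.9%). Of these, 1464 (17.4%) were higher in HSC and 1308 (15.5%) were higher in MEP, and the median change over all genes was -0.03. Before adjustment 3491 genes had a p under 0.05. The larger differences lay mostly on the HSC side: of 761 called genes that differed at least 2-fold, 546 were higher in HSC and 215 in MEP. The arrays of the groups did not overlap for 2706 genes (32.1%). The balance of directions moved with the scaling, being 1915 to 735 with the deposited values as they were, under which the median gene was 0.11 above 0, and 1434 to 1400 after quantile normalization. The genes with the widest differences were higher in MEP, led by Car1, Ermap, Aqp1, Mt1 and Klf1, whereas Dntt, Ltb, Flt3 and Vldlr led the HSC side.

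**Figure D1:**
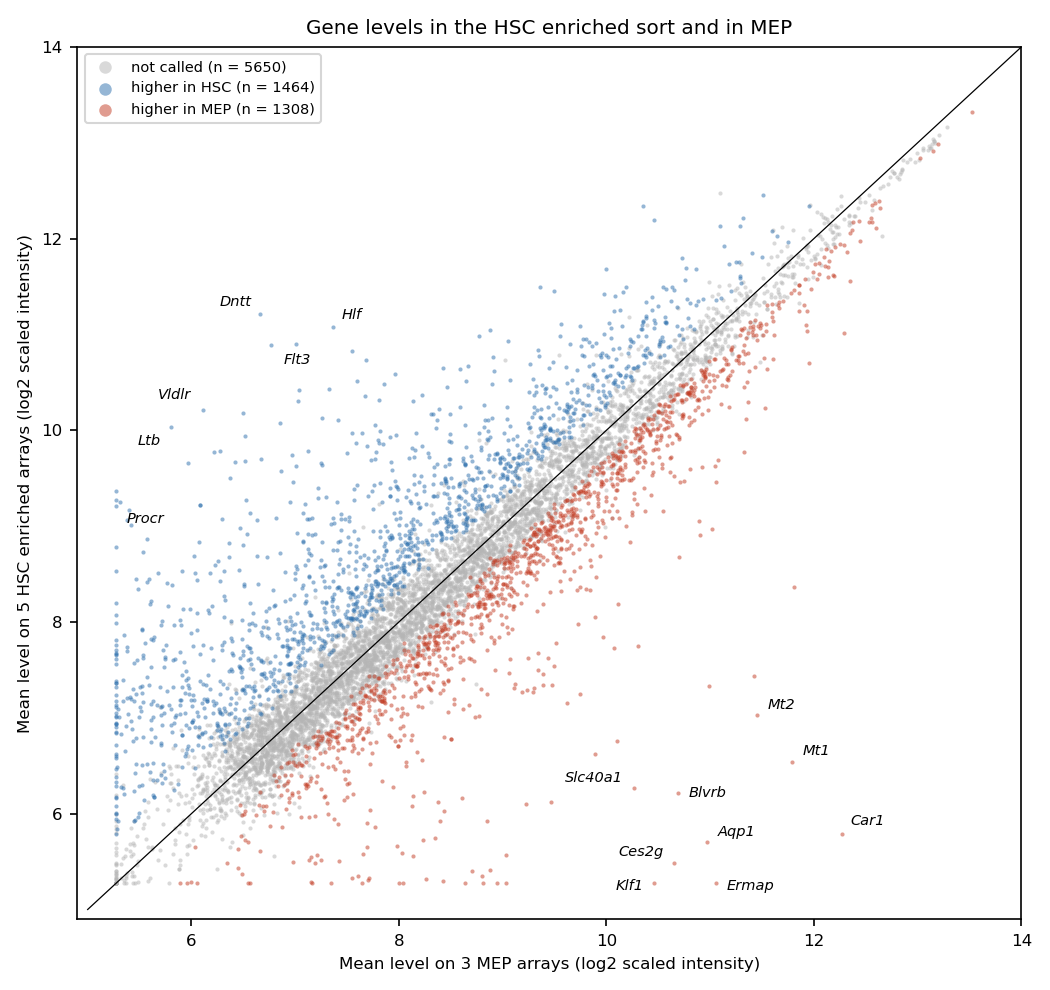
Mean level of each of the 8422 genes on the 3 MEP arrays (x axis) against the 5 HSC enriched arrays (y axis), in log2 scaled intensity, with called genes in colour and the line of equal levels. Genes along the left and lower edges were at the floor of 5.27 on all arrays of a group. Car1 and Ermap lie farthest below the line, and Dntt, Ltb and Flt3 far above it.

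The erythroid transcription factors set the sorts apart. Klf1, the factor that drives adult globin and other red cell genes, was at the floor of 5.27 on all 5 HSC arrays and at 10.11, 10.31 and 10.96 on the MEP arrays. It was thus at least 36.4-fold higher in MEP (log2 change -5.19 ± 0.28, adjusted p = 1.1e-11), with no overlap between the groups. Gata1, the master factor of erythroid and megakaryocytic cells, stood at 5.77, 5.88, 6.38, 6.57 and 6.02 in HSC and at 9.36, 9.51 and 9.52 in MEP. All 3 MEP arrays lay far above the highest HSC array (-3.34 ± 0.21, adjusted p = 1.08e-10). Gfi1b, a repressor needed for both MEP lineages, lay between 6.90 and 7.84 in HSC and between 9.69 and 9.78 in MEP (-2.50 ± 0.15, adjusted p = 6.57e-11). Zfpm1, the GATA1 cofactor FOG1, was higher in MEP as well (-1.52 ± 0.16).

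Factors shared by stem cells and MEP differed in both directions. Gata2, which acts in stem cells and early progenitors, was between 10.47 and 10.78 in HSC and between 11.34 and 11.70 in MEP (-0.91 ± 0.26, adjusted p = 0.00941), and it was not called without MEP replicate 3. Tal1, the partner of GATA factors, was 1.69-fold higher in MEP (-0.76 ± 0.15), and Ldb1, an adaptor of the same complex, 1.75-fold (-0.81 ± 0.21). Lmo2, also of that complex, was instead higher in HSC (0.51 ± 0.11, adjusted p = 0.00128). Fli1, an ETS factor of megakaryocytes and stem cells, was higher in HSC, at 8.85, 7.51, 8.72, 8.83 and 8.73 against 6.88, 6.30 and 5.77 in MEP (2.22 ± 0.31, adjusted p = 7.61e-06). HSC replicate 2 was the low array of its group and still lay above every MEP array. Across the 22 tested erythroid and megakaryocyte factors, 9 were called higher in MEP and 5 in HSC, with a median of -0.13. The shares were 40.9% and 22.7%, beside 15.5% and 17.4% over all genes. The other called members were Myb and Mbd2 on the MEP side and Foxo3, Cited2 and Ssbp2 on the HSC side.

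**Figure D2:**
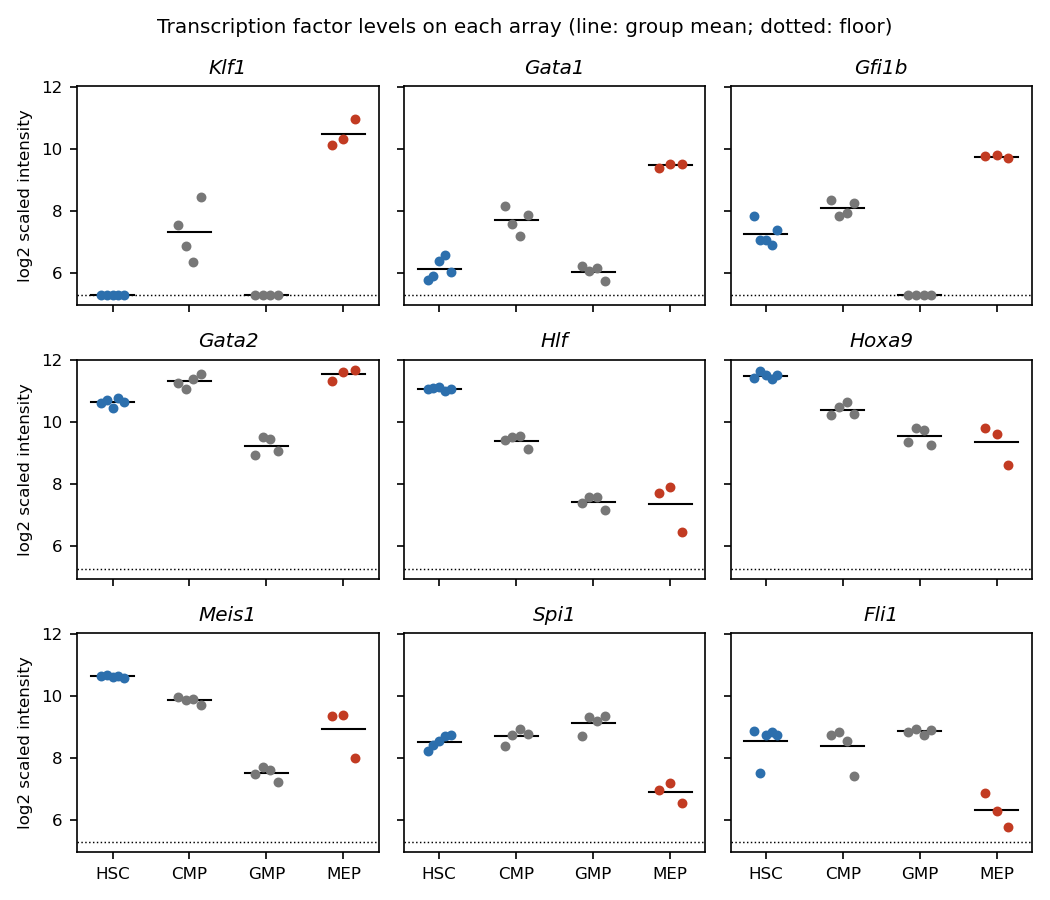
Level of 9 transcription factors on each HSC enriched, CMP, GMP and MEP array (x axis, 1 point per array) in log2 scaled intensity (y axis). Bars mark group means and the dotted line marks the floor of 5.27. Klf1, Gata1 and Gfi1b are highest in MEP and no HSC or GMP array lifts Klf1 off the floor, while Hlf, Hoxa9 and Meis1 are highest in HSC and Spi1 and Fli1 are lowest in MEP.

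Genes of the red cell membrane and of erythropoietin signalling were among those with the widest differences. Car1, a carbonic anhydrase of early erythroid cells, stood at 6.37, 5.71, 5.62, 5.75 and 5.51 in HSC and at 12.02, 12.24 and 12.56 in MEP. It was 89.4-fold higher in MEP (-6.48 ± 0.43, adjusted p = 2.22e-10), and HSC replicate 1 was the highest of its group. Ermap, a blood group protein of the red cell membrane, was at the floor on all HSC arrays and at 10.99, 11.00 and 11.17 in MEP, at least 55.1-fold higher (adjusted p = 2.65e-10). Aqp1, the water channel of red cells, lay between 5.33 and 6.17 in HSC and between 10.77 and 11.27 in MEP (-5.27 ± 0.21, adjusted p = 1.41e-13).

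The receptor and blood group genes followed the same direction. Epor, the erythropoietin receptor, was at 5.78, 5.47, 5.61, 5.69 and 5.28 in HSC against 8.84, 8.93 and 9.34 in MEP (-3.47 ± 0.21, adjusted p = 4.05e-11). Rhag, which carries the Rh complex to the membrane, was at the floor on every HSC array and at 9.06, 8.52 and 9.26 in MEP, at least 12.8-fold higher (adjusted p = 2.6e-12). Also higher in MEP were the blood group genes Kel (-3.47 ± 0.26), Rhd (-2.58 ± 0.25) and Icam4 (-3.27 ± 0.23), and Tspo2, a membrane protein of erythroid cells (-3.46 ± 0.19). Sphk1, a sphingosine kinase, was at the floor in HSC and at 8.55, 8.22 and 9.65 in MEP (-3.53 ± 0.20, adjusted p = 1.62e-11). Its MEP arrays had an SD of 0.75 (n = 3), so the SE, lowered by floored arrays, is likely too small. In all, 14 of 27 tested globin and red cell genes (51.9%) were called higher in MEP and 1 (3.7%) in HSC. Over all genes these shares were 15.5% and 17.4%, and the list's median was -0.92 against -0.03.

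Markers of later red cells were mostly not higher in MEP. Hba-a1, the alpha globin, stood between 7.09 and 7.72 in HSC and at 7.04, 6.81 and 6.99 in MEP, so that it was slightly higher in HSC (0.41 ± 0.15, adjusted p = 0.0411). It was not called once any of HSC replicates 1, 2 or 5 or any MEP array was left out. Alas2, the haem enzyme of erythroid cells, averaged 6.85 ± 0.21 (SD, n = 5) in HSC and 7.14 ± 0.07 (SD, n = 3) in MEP (-0.29 ± 0.14, adjusted p = 0.111), and Slc4a1, the band 3 anion exchanger, had a change of 0.21. Epb42, a membrane skeleton protein, was at the floor on all 8 arrays. Of the 7 tested late red cell markers 2 (28.6%, beside 15.5% over all genes) were called higher in MEP. They were Hemgn (-0.92 ± 0.14) and Icam4, and Hba-a1 was called higher in HSC. The summed intensity of the 7 markers lay between 1231 and 1504 on the HSC arrays and between 2393 and 2754 on the MEP arrays. Icam4 (log2 mean 6.62 in HSC and 9.89 in MEP) and Hemgn (8.61 and 9.53) made up most of that gap.

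The promoters of 4 erythroid genes higher in MEP are shown because they hold letters read by GATA factors, whose member Gata1 was among the genes that differed. The search took the letters AGATAA as well as TGATAA and also AGATAG and also TGATAG, on both strands of the 300 bases around each start, and the capitals mark the matches, which read TTATCA where the motif lies on the opposite strand. Sequences are RefSeq promoters on build GRCm38.p6, written 5' to 3' along the gene, 250 bases before to 50 bases after the start.
Ermap (chr4:119189946-119190245, minus strand): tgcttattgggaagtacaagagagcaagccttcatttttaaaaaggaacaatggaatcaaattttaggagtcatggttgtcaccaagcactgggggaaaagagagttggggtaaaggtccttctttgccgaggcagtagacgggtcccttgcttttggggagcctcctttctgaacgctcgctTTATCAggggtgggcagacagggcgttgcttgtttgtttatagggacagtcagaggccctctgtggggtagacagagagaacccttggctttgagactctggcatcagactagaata
Klf1 (chr8:84901732-84902031, plus strand): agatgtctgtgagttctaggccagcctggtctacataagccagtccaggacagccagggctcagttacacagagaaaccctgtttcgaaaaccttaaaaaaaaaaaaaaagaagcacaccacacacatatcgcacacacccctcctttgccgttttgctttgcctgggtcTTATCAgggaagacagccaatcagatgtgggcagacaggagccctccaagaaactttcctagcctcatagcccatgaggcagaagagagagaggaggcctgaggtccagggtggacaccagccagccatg
Blvrb (chr7:27452168-27452467, plus strand): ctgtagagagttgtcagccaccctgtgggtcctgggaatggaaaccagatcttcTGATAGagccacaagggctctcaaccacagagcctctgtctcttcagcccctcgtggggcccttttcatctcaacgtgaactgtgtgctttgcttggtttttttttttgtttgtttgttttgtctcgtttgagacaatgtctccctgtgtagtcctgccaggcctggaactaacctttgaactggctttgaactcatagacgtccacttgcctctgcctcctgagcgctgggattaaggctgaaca
Rhag (chr17:40810899-40811198, plus strand): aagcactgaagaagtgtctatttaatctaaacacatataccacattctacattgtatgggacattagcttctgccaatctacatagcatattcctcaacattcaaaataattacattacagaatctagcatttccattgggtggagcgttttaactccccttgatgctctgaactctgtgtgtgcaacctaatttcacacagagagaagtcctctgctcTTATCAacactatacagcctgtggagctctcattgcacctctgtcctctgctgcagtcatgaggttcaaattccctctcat
Each of these promoters held 1 match. Among members of the erythroid factor, haem and red cell lists that were called higher in MEP, 18 of 49 promoters (36.7%) held a match, against 39% of the promoters of all tested members of those lists, 19.3% of those of all tested genes and 29.8% of the 32851 in the table. A match is a description of letters and not of binding.

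Most called genes of iron uptake and haem synthesis were higher in MEP. Steap3, which reduces iron in endosomes, was 5.68-fold higher in MEP (-2.51 ± 0.24, adjusted p = 5.08e-08), and the transferrin receptors Tfr2 (-1.39 ± 0.16) and Tfrc (-1.07 ± 0.16) were higher too. Of the haem enzymes, Alad (-1.74 ± 0.13), Uros (-0.62 ± 0.15), Urod (-1.39 ± 0.16), Cpox (-2.34 ± 0.33) and Fech (-0.38 ± 0.11), which act in that order, were higher in MEP, and Fech was not called without MEP replicate 3. The first enzyme was not among them, since Alas1 had a change of 0.16, nor was Ppox at -0.16.

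Cpox was at 7.95, 7.84, 6.91, 8.07 and 7.90 in HSC and at 9.98, 9.64 and 10.61 in MEP, with HSC replicate 3 the lowest. Blvrb, a biliverdin reductase of the haem breakdown path, was between 5.27 and 7.07 in HSC and at 10.48, 10.43 and 11.15 in MEP (-4.47 ± 0.39, adjusted p = 1.32e-08). Slc40a1, the iron exporter ferroportin, was between 5.85 and 7.09 in HSC and between 10.17 and 10.37 in MEP (-4.0 ± 0.36, adjusted p = 1.67e-08). Abcb10, a mitochondrial transporter that stabilises iron import, and Tmem14c, which moves haem precursors, were higher in MEP (-1.41 ± 0.11 and -1.20 ± 0.16). Slc25a37, the mitochondrial iron importer, was the 1 member higher in HSC (0.78 ± 0.26, adjusted p = 0.0238), and it was not called without HSC replicate 2 or without MEP replicate 3. Of 24 tested members 14 (58.3%, beside 15.5% over all genes) were called higher in MEP, and 12 without MEP replicate 3. The median was -0.55.

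**Figure D3:**
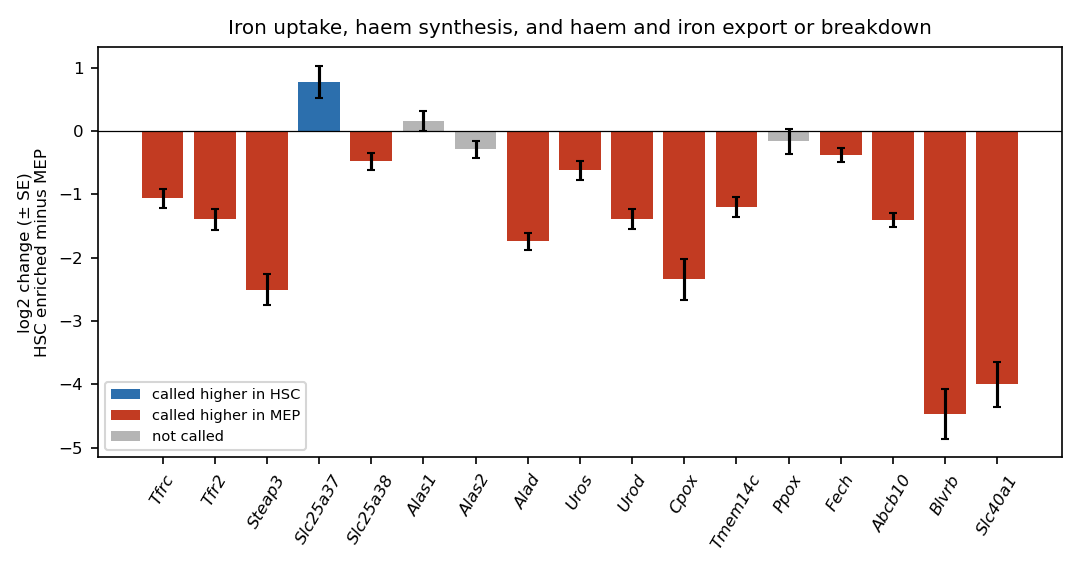
Log2 change (y axis, HSC enriched minus MEP, ± SE) of genes of iron uptake, haem synthesis, and haem and iron export or breakdown (x axis), with negative bars higher in MEP. Blvrb, Slc40a1, Steap3 and Cpox have the longest bars, and Slc25a37 is the 1 gene called on the HSC side.

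Megakaryocyte genes were split between the sorts. Pf4, a platelet chemokine, was at 9.0, 8.91, 8.85, 8.77 and 9.01 in HSC and at 10.76, 10.70 and 11.25 in MEP (-1.99 ± 0.54, adjusted p = 0.00624). Itga2b, the platelet integrin CD41, lay between 9.36 and 9.76 in HSC and between 10.36 and 10.91 in MEP (-1.05 ± 0.23, adjusted p = 0.00129). Both groups of arrays were apart for these genes. F2r, a thrombin receptor (-1.27 ± 0.15), Gp5, a platelet glycoprotein (-1.33 ± 0.21), Cavin2, a protein of membrane caveolae (-2.38 ± 0.40), and Vwf, the clotting adhesion protein von Willebrand factor (-1.73 ± 0.48), were also higher in MEP. Selp, the adhesion molecule P-selectin (1.41 ± 0.20), and Tbxas1, thromboxane synthase (1.27 ± 0.16), were higher in HSC. The list counted 7 of 16 tested members higher in MEP and 4 in HSC, with a median of -0.10. The shares were 43.8% and 25%, beside 15.5% and 17.4% over all genes. Of its untested members Ppbp, Itgb3, Cd9, Slc6a4 and Alox12 were at the floor on all 8 arrays.

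Other genes with the largest differences on the MEP side had varied roles. Mt1, a metallothionein that binds zinc and copper, was at 6.74, 6.59, 7.07, 6.20 and 6.10 in HSC and at 11.59, 11.65 and 12.14 in MEP (-5.25 ± 0.23, adjusted p = 3.2e-13). Its neighbour in function Mt2 lay between 6.68 and 7.40 in HSC and between 11.07 and 12.13 in MEP (-4.42 ± 0.30, adjusted p = 3.37e-10). Ces2g, a carboxylesterase, was at the floor on 3 HSC arrays and between 10.63 and 10.69 in MEP (-5.17 ± 0.33). The groups were far apart for each of these genes, and MEP replicate 3 was the highest array for all 3.

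Tnfaip2, a gene induced by tumour necrosis factor, averaged 7.44 ± 0.27 (SD, n = 5) in HSC and 11.43 ± 0.10 (SD, n = 3) in MEP (-3.98 ± 0.24, adjusted p = 4.39e-11). Abcb4, a phospholipid transporter, averaged 7.34 ± 0.13 (SD, n = 5) and 10.99 ± 0.13 (SD, n = 3) (-3.66 ± 0.18, adjusted p = 1.63e-12). Col5a1, a collagen chain, was at the floor in HSC and at 9.03, 8.75 and 9.31 in MEP by the probe set that represents it, at least 13.5-fold higher. With no filter on low values another probe set of higher mean stood for Col5a1 and gave 0.66 in the opposite direction (adjusted p = 0.00996). Antioxidant genes were mostly on the MEP side, with 6 of 14 called higher there and 4 without MEP replicate 3. The 6 were 42.9% of the list, beside 15.5% over all genes. They were led by the glutathione transferase Gstm5 (-2.55 ± 0.20) and Gclm, a subunit of the enzyme that limits glutathione synthesis (-1.55 ± 0.14). Gstm1, another transferase, was the 1 called member higher in HSC (2.05 ± 0.21).

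Of 27 tested transcription factors of stem cells 15 (55.6%) were called higher in HSC, 2 (7.41%) in MEP and 10 in neither. The median was 0.77, and over all genes 17.4% were higher in HSC and 15.5% in MEP. Hlf, a factor of long-term stem cells, was at 11.06, 11.10, 11.14, 11.01 and 11.08 in HSC and at 7.72, 7.90 and 6.47 in MEP. The HSC arrays differed by little, MEP replicate 3 was the lowest, and the gene was 13.1-fold higher in HSC (3.71 ± 0.23, adjusted p = 8.21e-11). Hoxa9, a homeobox gene of stem cell expansion, was between 11.40 and 11.64 in HSC and at 9.82, 9.62 and 8.63 in MEP (2.14 ± 0.22, adjusted p = 1.69e-07). Its cofactor Meis1 was between 10.56 and 10.67 in HSC and at 9.36, 9.38 and 8.0 in MEP (1.71 ± 0.21, adjusted p = 1.78e-06).

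The HoxA genes differed by unequal amounts. Hoxa10 was at the floor on all 3 MEP arrays and between 7.38 and 7.70 in HSC, at least 4.9-fold higher (2.29 ± 0.16, adjusted p = 3.73e-10), and Hoxa5 was 6.32-fold higher (2.66 ± 0.33). Hoxa7 had a smaller change (0.77 ± 0.22, adjusted p = 0.00996) and was not called without MEP replicate 1. The HoxB genes tested were not called, with changes of 0.07 for Hoxb4, 0.06 for Hoxb3 and -0.26 for Hoxb5. Zfp521, a zinc finger regulator of progenitors (2.60 ± 0.17), Hmga2, a chromatin protein linked to self-renewal (2.38 ± 0.35), and Msi2, an RNA-binding protein of stem cells (1.72 ± 0.30), were higher in HSC. The 2 members higher in MEP were Gata2 and Tal1. The MEP count was 1 without MEP replicate 3, which ended the call of Gata2. Mecom, a further regulator of stem cells, passed no filter and averaged 5.82 in HSC and 5.75 in MEP by its probe set.

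Surface and signalling genes of stem cells moved in both directions. Procr, the protein C receptor that marks long-term stem cells, was at 9.31, 9.28, 8.88, 9.14 and 9.43 in HSC and at the floor in all MEP, at least 15.3-fold higher (3.93 ± 0.11, adjusted p = 9.22e-16). Adgrl4, an adhesion receptor, lay between 10.55 and 11.07 in HSC and at 7.91, 7.62 and 5.49 in MEP (3.89 ± 0.41, adjusted p = 1.95e-07). Its MEP arrays were widely spread, with replicate 3 the lowest. Cd27, a costimulatory receptor (2.87 ± 0.26), Cd93 (2.15 ± 0.17), Esam, an endothelial adhesion molecule of stem cells (1.36 ± 0.18), and Cdkn1c, the cell cycle inhibitor p57 (2.21 ± 0.39), were higher in HSC too.

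In contrast, 4 members of the list were higher in MEP. Slamf1, the CD150 receptor used to sort stem cells, was at 6.18, 6.48, 6.25, 6.40 and 6.26 in HSC and at 7.59, 7.93 and 6.98 in MEP (-1.18 ± 0.17, adjusted p = 1.44e-05). The others were Vwf, Plxnc1, a semaphorin receptor (-0.79 ± 0.23), and Clca3a1 (-2.59 ± 0.36). In all 18 of 30 tested members (60%, beside 17.4% over all genes) were called higher in HSC, and 15 without MEP replicate 3. The 4 higher in MEP were 13.3%, beside 15.5%, and the list's median was 0.79. Tek, the angiopoietin receptor, had a change of 0.06 and Abcg2, the transporter of the side population, 0.02.

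The sort markers describe the gates and are given without a test. Cd34 averaged 9.78 ± 0.19 (SD, n = 5) in HSC and 6.28 ± 0.84 (SD, n = 3) in MEP, and it was low on all 3 MEP arrays, at 6.86, 6.65 and 5.32. Kit, on which both sorts were positive, averaged 9.69 ± 0.19 (SD, n = 5) and 9.53 ± 0.28 (SD, n = 3), with overlapping arrays. Fcgr3 was at the floor on all 8 arrays, and Fcgr2b was between 7.19 and 7.80 in HSC and between 6.45 and 7.52 in MEP. Ly6a, the gene of the Sca antigen, was not analysed here.

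Lymphoid genes had the highest median of the gene lists but 1, though the lists were chosen with earlier results of these data known. Dntt, the enzyme that adds bases at antigen receptor joints, was at 11.17, 11.24, 11.26, 11.02 and 11.37 in HSC and at 7.49, 6.86 and 5.64 in MEP. It was 23.4-fold higher in HSC (4.55 ± 0.26, adjusted p = 3.32e-11), and no MEP array came near the HSC arrays. Flt3, the receptor that marks lymphoid-primed progenitors, was at 10.76, 11.00, 10.88, 10.79 and 11.02 in HSC and at 6.96, 7.06 and 6.29 in MEP (4.12 ± 0.32, adjusted p = 2.4e-09). Ltb, lymphotoxin beta, was between 9.60 and 10.36 in HSC and at 5.49, 5.27 and 6.65 in MEP (4.23 ± 0.25, adjusted p = 4.65e-11).

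Further lymphoid regulators were higher in HSC by 2 log2 units or more. Notch1, the receptor for T lineage entry, was between 10.01 and 10.54 in HSC and at 7.28, 7.52 and 6.27 in MEP (3.28 ± 0.22, adjusted p = 2.22e-10). Satb1, a chromatin organiser (2.69 ± 0.35), and Ets1, a transcription factor (2.06 ± 0.30), were higher as well. Ighm, the mu heavy chain gene, was 7.56-fold higher (2.92 ± 0.45, adjusted p = 2.77e-05), with MEP values of 6.50, 6.94 and 9.34, so that here replicate 3 was the highest MEP array. Of 16 tested members 12 (75%, beside 17.4% over all genes) were called higher in HSC, with a median of 1.95. Bcl11a was called at -0.25 ± 0.10 (adjusted p = 0.0469) and lost that call without MEP replicate 1 or 2 or any HSC array but replicate 4. The Gimap GTPases of lymphocytes had 3 of 4 members (75%, beside 17.4% over all genes) higher in HSC. They were Gimap6 (3.13 ± 0.18), Gimap1 (2.75 ± 0.20) and Gimap7 (1.81 ± 0.16), and Gimap4 at -0.08 was not called.

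Other genes with the largest differences on the HSC side had varied roles. Vldlr, a lipoprotein receptor, lay between 9.99 and 10.35 in HSC and at 6.29, 6.78 and 5.27 in MEP (4.10 ± 0.26). Gbp6, an interferon-induced GTPase, was at 9.46, 9.67, 9.63, 8.67 and 9.38 in HSC and at the floor in all MEP, at least 17-fold higher (adjusted p = 2.07e-13). Wfdc18, a small secreted protein, was also at the floor in all MEP and averaged 9.28 ± 0.28 (SD, n = 5) in HSC, at least 16-fold higher. The MEP arrays were low for each of these genes, and for Vldlr 1 of them was at the floor.

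Ddx4, an RNA helicase best known from germ cells, was between 9.13 and 9.45 in HSC and at 5.39, 5.27 and 5.27 in MEP (3.94 ± 0.33, adjusted p = 6.7e-09). Il17re, a subunit of the interleukin 17C receptor, and Il18, a cytokine, had changes of 3.77 ± 0.20 and 3.68 ± 0.13. Pglyrp2, an enzyme that cuts bacterial peptidoglycan, had 3.59 ± 0.14. For all of these, 2 of the 3 MEP arrays were at the floor. Padi4, a deiminase of neutrophils, was at 9.58, 9.65, 9.51, 9.68 and 9.86 in HSC and at 6.29, 6.35 and 5.27 in MEP (3.69 ± 0.32). Myl10, a myosin light chain, was between 9.09 and 10.72 in HSC and at 5.63, 6.36 and 7.50 in MEP (3.68 ± 0.40, adjusted p = 3.49e-07), with HSC replicate 4 the lowest of its group.

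**Figure D4:**
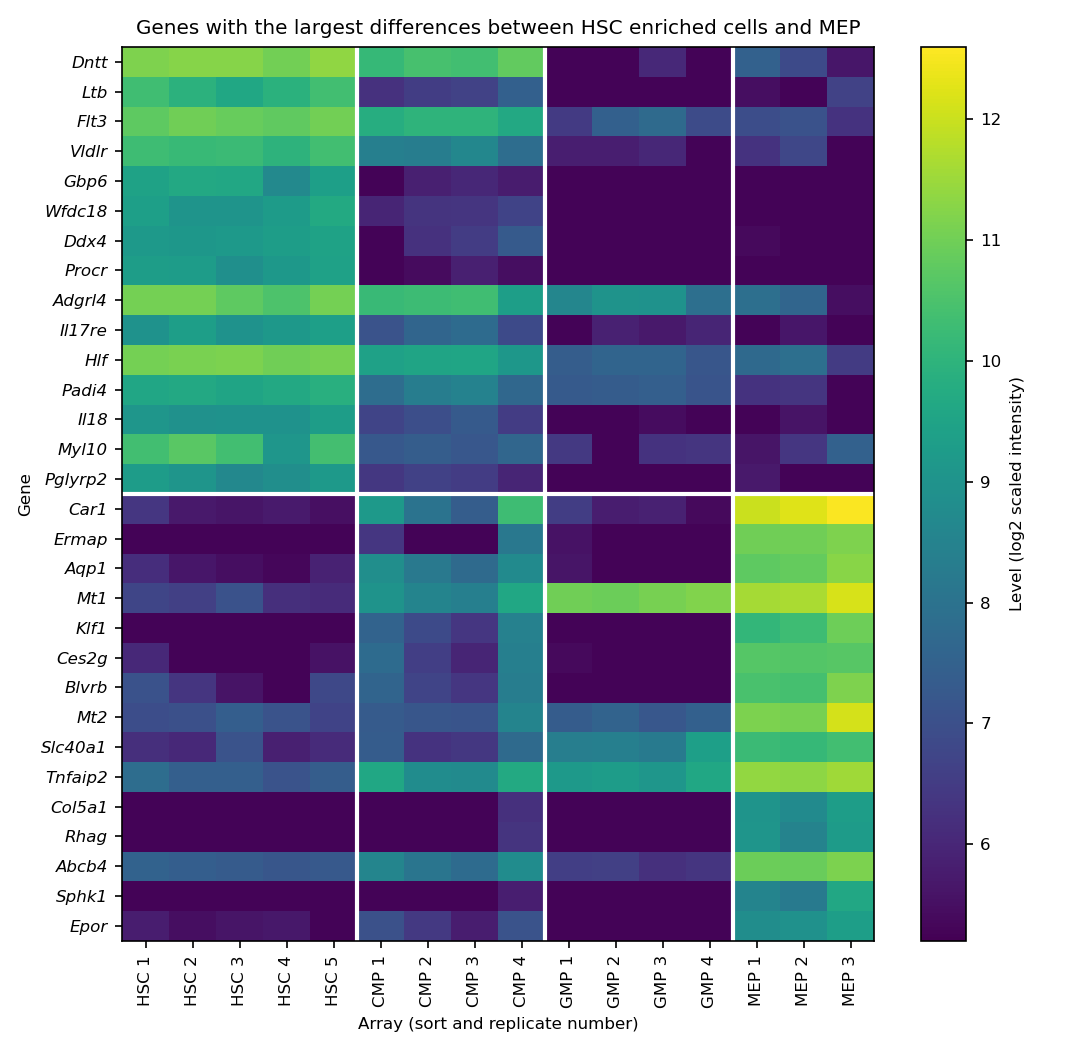
Level (colour, log2 scaled intensity) of the 15 genes with the largest differences in each direction (rows) on each HSC enriched, CMP, GMP and MEP array (columns, with replicate numbers). The upper block is high on all 5 HSC arrays and low on the 3 MEP arrays, and the lower block the reverse. Mt1 is also high on the GMP arrays, and Dntt, Flt3 and Adgrl4 are high on the CMP arrays.

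Of 26 tested genes of granulocyte and monocyte progenitors 14 (53.8%) were called higher in HSC, 1 (3.85%) in MEP and 11 in neither. Those shares stood beside 17.4% and 15.5% over all genes. Spi1, the factor PU.1 that acts against GATA1, was at 8.23, 8.41, 8.55, 8.71 and 8.72 in HSC and at 6.97, 7.19 and 6.54 in MEP (1.62 ± 0.17, adjusted p = 2.42e-07). Gfi1, a repressor of lymphoid and granulocytic cells and of stem cell division, was between 9.28 and 9.82 in HSC and at 6.78, 7.16 and 5.31 in MEP (3.24 ± 0.28, adjusted p = 9.57e-09). Neither gene overlapped between the groups. Cebpa, the factor of granulocyte fate, was 1.71-fold higher (0.77 ± 0.16), Cd53, a tetraspanin of leukocytes, 6.18-fold (2.63 ± 0.21) and Prtn3, a protease of primary granules, 3.87-fold (1.95 ± 0.19). Mpo, myeloperoxidase, averaged 10.49 in HSC and 9.81 in MEP (0.68 ± 0.31, adjusted p = 0.108), and Elane, neutrophil elastase, had a change of -0.69. The 1 member higher in MEP was the protease inhibitor Cst7 (-1.35 ± 0.20), and without HSC replicate 3 there were 2. The list's median was 0.71.

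Of 26 tested cytokine receptor genes 15 (57.7%) were called higher in HSC, 2 (7.69%) in MEP and 9 in neither. Over all genes 17.4% were higher in HSC and 15.5% in MEP. Csf3r, the receptor of granulocyte colony-stimulating factor, was between 7.66 and 8.10 in HSC and at 5.97, 5.57 and 5.59 in MEP (2.26 ± 0.17, adjusted p = 1.49e-09). Il6ra, for interleukin 6 (2.59 ± 0.28), Il18r1, for interleukin 18 (1.70 ± 0.18), and the tumour necrosis factor receptors Tnfrsf1b (1.40 ± 0.19) and Tnfrsf1a (1.20 ± 0.12) were higher in HSC. Besides Epor, Ifngr1, a chain of the interferon gamma receptor, was higher in MEP (-1.40 ± 0.16), while the interferon alpha receptor genes Ifnar2 (0.98 ± 0.13) and Ifnar1 (0.35 ± 0.13, adjusted p = 0.0408) were higher in HSC. The call of Ifnar1 was lost without HSC replicate 2, 4 or 5 or MEP replicate 2 or 3. The median was 0.61, and 11 members were higher in HSC without MEP replicate 3. The list also held the ligand Il18.

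Interferon-stimulated genes were higher in HSC or not called. Oasl2, of the oligoadenylate synthetase family, was between 7.69 and 8.20 in HSC and at 5.95, 5.94 and 5.27 in MEP (2.29 ± 0.22, adjusted p = 6.05e-08). Rsad2, the antiviral protein viperin, was at 10.07, 10.38, 10.19, 10.26 and 10.20 in HSC and at 9.06, 8.73 and 7.38 in MEP (1.83 ± 0.36, adjusted p = 0.000419). HSC arrays varied little for Rsad2 and MEP replicate 3 was the lowest. Iigp1, a GTPase against intracellular parasites (2.01 ± 0.20), Gbp3 and Gbp2, guanylate-binding proteins (1.68 ± 0.22 and 1.39 ± 0.22), and Ifit1, which binds foreign RNA (1.40 ± 0.18), were higher in HSC. Of 28 tested members 19 (67.9%, beside 17.4% over all genes) were called higher in HSC and 0 in MEP by limma. The list's median was 0.71, and 16 were called higher in HSC without MEP replicate 3. In the list of MHC class I and antigen presentation 5 of 12 (41.7%, beside 17.4%) were higher in HSC, and 9 with the deposited scale. Among the 5 was the peptide transporter Tap2 (1.04 ± 0.19), while B2m at 0.25 was not called.

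The promoters of 4 called interferon-stimulated genes are shown with the element read by interferon factors. The search took GAAANNGAAA on both strands of the same windows, and capitals mark the matches, which start with TTTC where the element lies on the opposite strand.
Rsad2 (chr12:26456403-26456702, minus strand): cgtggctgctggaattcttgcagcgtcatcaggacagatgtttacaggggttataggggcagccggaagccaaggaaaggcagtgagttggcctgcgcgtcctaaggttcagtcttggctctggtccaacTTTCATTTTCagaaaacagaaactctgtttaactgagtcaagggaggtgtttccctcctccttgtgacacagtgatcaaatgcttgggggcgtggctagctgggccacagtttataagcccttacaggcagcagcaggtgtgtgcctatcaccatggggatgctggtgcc
Gbp3 (chr3:142559794-142560093, plus strand): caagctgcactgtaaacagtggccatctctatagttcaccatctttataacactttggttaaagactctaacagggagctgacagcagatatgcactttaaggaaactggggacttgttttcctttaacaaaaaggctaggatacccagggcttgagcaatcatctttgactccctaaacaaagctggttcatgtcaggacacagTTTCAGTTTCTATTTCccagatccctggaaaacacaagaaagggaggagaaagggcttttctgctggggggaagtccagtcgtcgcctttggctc
Ifit1 (chr19:34640639-34640938, plus strand): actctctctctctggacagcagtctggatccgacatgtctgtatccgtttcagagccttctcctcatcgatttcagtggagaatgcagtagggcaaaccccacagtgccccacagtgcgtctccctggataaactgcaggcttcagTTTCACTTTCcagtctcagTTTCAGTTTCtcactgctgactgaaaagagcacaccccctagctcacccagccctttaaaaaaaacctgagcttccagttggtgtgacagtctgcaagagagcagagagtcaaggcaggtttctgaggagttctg
Gbp2 (chr3:142620413-142620712, plus strand): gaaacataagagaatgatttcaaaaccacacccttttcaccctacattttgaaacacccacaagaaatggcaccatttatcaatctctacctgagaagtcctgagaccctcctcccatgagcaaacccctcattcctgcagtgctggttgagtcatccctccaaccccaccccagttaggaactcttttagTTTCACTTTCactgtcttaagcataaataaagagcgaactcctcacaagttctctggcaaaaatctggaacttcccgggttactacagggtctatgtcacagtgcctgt
Gbp3 and Ifit1 held 2 matches each, overlapping in Gbp3, and the other promoters held 1. In the list's called members 9 of 16 promoters (56.2%) held the element, and 5 of 11 (45.5%) of those of tested members that were not called, against 3.21% over all tested genes and 3.44% over the table.

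Among MYC targets and ribosome biogenesis genes 26 of 32 tested members (81.2%) were called higher in MEP and 0 in HSC by limma. That share stood beside 15.5% over all genes, the median was -0.59, and 20 members were called without MEP replicate 3. Myc, which drives ribosome production, was at 9.76, 9.92, 9.77, 9.50 and 9.49 in HSC and at 10.34, 10.36 and 10.13 in MEP (-0.59 ± 0.11, adjusted p = 0.000313). Srm, spermidine synthase, was between 9.57 and 9.84 in HSC and at 10.83, 10.86 and 11.54 in MEP (-1.39 ± 0.14, adjusted p = 1.39e-07). The groups were apart for both genes, though by little for Myc. The called members also included Npm1, nucleophosmin (-0.46 ± 0.08), Cad, of pyrimidine synthesis (-1.06 ± 0.11), and Utp4, of ribosomal RNA processing (-1.75 ± 0.36). Polr1a was not called at 0.47. Of 24 cytoplasmic ribosomal proteins 3 were called higher in MEP, Rpl14 (-0.78 ± 0.15), Rpl8 and Rpl22, a share of 12.5% beside 15.5% over all genes, with a median of -0.14. That count was 6 without MEP replicate 1, 1 without HSC replicate 4, HSC replicate 5 or MEP replicate 3, and 12 with an intensity trend in the prior of the fit.

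Of 38 subunits of oxidative phosphorylation 26 (68.4%, beside 15.5% over all genes) were called higher in MEP and 0 in HSC by limma. Their median was -0.35. The widest difference was that of Atp5g1, a subunit of ATP synthase, at 9.69, 9.55, 9.30, 9.34 and 9.49 in HSC and 10.59, 10.66 and 11.00 in MEP (-1.28 ± 0.12, adjusted p = 2.87e-08). The count was 10 without MEP replicate 3, 10 with the deposited scale and 16 with the 8 arrays alone. Glycolysis genes went both ways. Pkm, a pyruvate kinase, was at 9.63, 9.74, 9.48, 9.81 and 10.08 in HSC and at 6.98, 7.31 and 6.62 in MEP (2.78 ± 0.19, adjusted p = 4.99e-10). The aldolase Aldoc was at the floor in MEP and at least 6.97-fold higher in HSC, and the glucose transporter Slc2a1 was 4.92-fold higher (2.30 ± 0.25).

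The lactate dehydrogenases went in opposite directions. Ldhb was between 9.16 and 9.55 in HSC and between 7.52 and 7.74 in MEP (1.83 ± 0.14), while Ldha was between 7.62 and 8.36 in HSC and between 9.08 and 9.10 in MEP (-1.16 ± 0.21, adjusted p = 0.000192). In glycolysis 7 of 15 members (46.7%, beside 17.4% over all genes) were called higher in HSC. The 2 higher in MEP (13.3%, beside 15.5%) were Ldha and the hexokinase Hk1 (-0.38 ± 0.12). The call of Hk1 was lost without MEP replicate 2 or 3. The cholesterol list had 2 of 14 members higher in HSC, Srebf2, its main transcription factor (0.64 ± 0.15), and Hmgcs1 (0.56 ± 0.18, adjusted p = 0.0191), a share of 14.3% that is near the 17.4% over all genes. The call of Hmgcs1 was lost without HSC replicate 1 or MEP replicate 2 or 3, and without HSC replicate 1 a member was called higher in MEP.

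Of the S phase genes 22.6% were called higher in MEP, and of the G2 and M phase genes 9.38%, beside 15.5% over all genes. Mki67, a marker of cycling cells, was at 10.62, 10.56, 10.60, 9.34 and 9.88 in HSC and at 10.59, 10.84 and 10.58 in MEP (-0.47 ± 0.23, adjusted p = 0.131). HSC replicates 4 and 5 were low and the others were level with MEP. Of 31 S phase genes 7 were called higher in MEP, with a median of -0.17, among them Fen1, of DNA repair (-0.46 ± 0.11), and Cdc6, which licenses origins (-0.73 ± 0.20), but 2 without MEP replicate 3 (Cdc6 not among them) and 4 without HSC replicate 4. Of 32 G2 and M phase genes 3 were called higher in MEP, Cenpa (-1.19 ± 0.15), Cks2 (-0.89 ± 0.09) and Anln, with a median of -0.34, and 7 without HSC replicate 1.

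The 1 mitotic gene called higher in HSC was Kif23, a kinesin of cell division, at 9.91, 9.78, 9.82, 9.21 and 9.73 against 7.66, 7.77 and 7.77 in MEP (1.95 ± 0.19, adjusted p = 5.89e-08). Among D-type cyclins and inhibitors, Cdkn1c was at 8.54, 8.41, 7.61, 8.07 and 8.03 in HSC and at 6.13, 6.35 and 5.27 in MEP, and Ccnd1, cyclin D1, was 2.28-fold higher in HSC (1.19 ± 0.21). Cdkn2d was the third member higher in HSC (0.34 ± 0.11, adjusted p = 0.0208), without a call when MEP replicate 3 was left out, and Rb1, the retinoblastoma gene, was higher in MEP (-0.69 ± 0.15). Cdkn1b and Cdkn1a were not called, at 0.03 and 0.37.

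**Figure D5:**
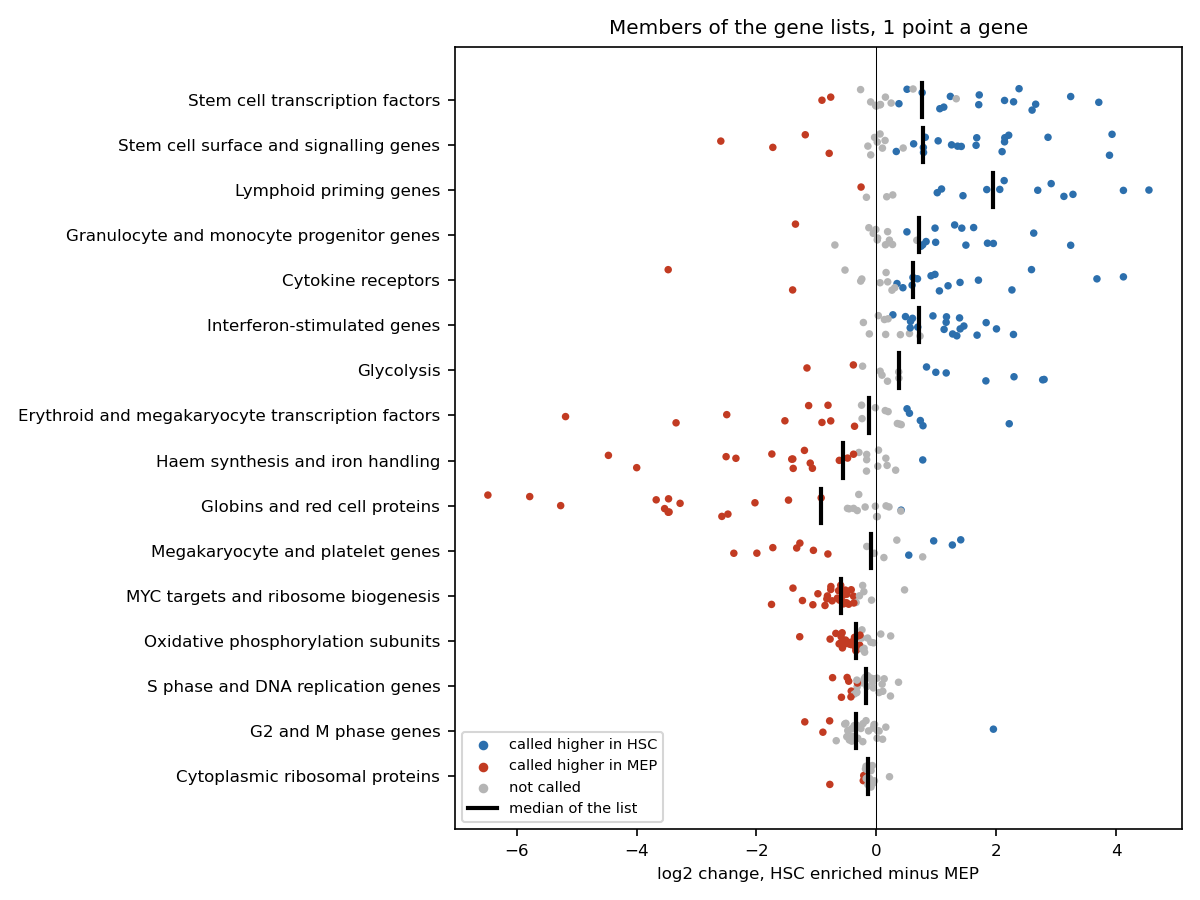
Log2 change (x axis, HSC enriched minus MEP) of each tested member of 16 gene lists (y axis, 1 point per gene, black bar at the median). Lymphoid, stem cell and interferon-stimulated genes lie mostly to the right, red cell and haem genes spread far to the left, and ribosome biogenesis and oxidative phosphorylation genes form narrow bands left of 0.

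Immediate early genes, which respond within minutes to handling and signals, varied more within HSC than between the groups. Egr1 was at 10.21 on HSC replicate 1, between 12.20 and 12.55 on the other HSC arrays and between 11.77 and 12.14 in MEP (-0.01 ± 1.16). Klf2 was at the floor on HSC replicate 1 and reached 10.26 on replicate 4 (1.96 ± 0.74, adjusted p = 0.0471), overlapped MEP, and lost its call without HSC replicate 2, 4 or 5 or any MEP array. Of 31 tested members 4 were called higher in HSC, including Socs3, an inhibitor of cytokine signalling (2.51 ± 0.67, adjusted p = 0.00603), and 3 in MEP, including Gadd45a, a stress gene (-1.95 ± 0.17). These shares, 12.9% and 9.68%, were below the 17.4% and 15.5% over all genes. The mean level of the list lay between 8.67 and 10.89 on the HSC arrays and between 9.59 and 9.93 on the MEP arrays. Left out after the data were seen, the first replicates of HSC, CMP and GMP took the HSC count from 4 to 11. The count was 6 without HSC replicate 1 alone and 2 without any of HSC replicates 2, 4 or 5 or any MEP array.

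Adhesion and cytoskeleton genes were called higher in HSC for 10 of 24 members and in MEP for 2, with a median of 0.30. The shares were 41.7% and 8.33%, beside 17.4% and 15.5% over all genes. Anxa1, an annexin (1.45 ± 0.19), Itgav, an integrin chain (1.07 ± 0.16), and Cd44, a hyaluronan receptor (0.54 ± 0.11), were higher in HSC. Icam2, an adhesion ligand (-0.72 ± 0.12), and Itga2b were those higher in MEP.

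Markers of other cells differed between the sorts for some types. In the B cell list 1 of 5 tested members, Cd79b (1.63 ± 0.17), was higher in HSC, a share of 20% that is near the 17.4% over all genes. The summed level ran from 1311 to 1523 in HSC and from 1216 to 1461 in MEP, with Ebf1 and Pou2af1 at the floor on all 8 arrays. In the T and NK list Gzmb, granzyme B, was the 1 of 6 called and was higher in MEP (-2.23 ± 0.29). That share of 16.7% is near the 15.5% over all genes. The list had sums of 907 to 1464 and 1114 to 1588, with Cd3g and Ncr1 at the floor throughout. Without MEP replicate 2, 1 T or NK marker was called higher in HSC and 2 monocyte markers higher in MEP. In the monocyte and macrophage list 3 of 16 were higher in HSC, among them Cd68 (1.15 ± 0.16) and Csf1r (0.91 ± 0.20), a share of 18.8% that is near the 17.4% over all genes. The 1 higher in MEP was Apoe, a lipid carrier, at 8.74, 8.20, 7.78, 8.60 and 8.51 in HSC and 11.68, 11.72 and 12.04 in MEP (-3.45 ± 0.18, adjusted p = 4.68e-12). The sums of that list did not overlap, at 2988 to 4915 in HSC and 5309 to 6955 in MEP, but Apoe made up much of the MEP sums. The mean log2 level of the list did overlap, at 6.97 to 7.53 in HSC and 6.92 to 7.33 in MEP. Cd14 and Marco were at the floor on all 8 arrays.

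Neutrophil granule markers had 2 of 11 members higher in HSC, Padi4 and Pglyrp1 (1.01 ± 0.28), a share of 18.2% that is near the same 17.4%. Camp, a granule peptide, was at 11.68 on HSC replicate 3 and between 9.05 and 9.77 on the other HSC arrays, and at 8.76, 10.63 and 8.91 in MEP (0.43 ± 0.70, adjusted p = 0.699). The list's sums were 9501 to 29599 in HSC and 5976 to 18664 in MEP, with Mmp9 and Cxcr2 at the floor throughout. Mast cell and basophil markers had 3 of 8 members (37.5%, beside 15.5% over all genes) higher in MEP. They were Cpa3, a mast cell protease (-2.41 ± 0.42, at 8.89, 8.93 and 7.50 in MEP), Gata2 and Hdc. The sums were 6090 to 6930 and 7451 to 8577, and Mcpt8 and Prg3 were at the floor throughout. Gata2, also in the stem cell and erythroid factor lists, averaged 10.64 in HSC and 11.55 in MEP (log2). It made up much of the gap between the sums. The calls of Gata2 and Hdc depended on single arrays: Hdc lost its call without any 1 of the HSC arrays or without MEP replicate 1 or 2.

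Among dendritic cell and MHC class II markers 4 of 8 were higher in HSC, a share of 50% beside 17.4% over all genes. They included H2-DMa (1.13 ± 0.12), and Flt3 (4.12 ± 0.32) and Tcf4 (1.02 ± 0.16), which are also in the lymphoid list. Cd74 was at 0.16. The sums were 6905 to 8416 in HSC and 3364 to 5373 in MEP. Flt3 (log2 mean 10.89 in HSC and 6.77 in MEP) and Tcf4 (11.07 and 10.05) made up much of that gap. Of 7 stroma and endothelium markers 0 were called in either direction by limma, with sums of 1064 to 1556 and 970 to 1440 and with Pecam1 and Lum at the floor throughout. Without HSC replicate 1, 1 of them was called higher in HSC. What part any of these cells had in the differences above was not tested.

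CMP mostly lay between the sorts. For 478 of the 546 genes called at least 2-fold higher in HSC (87.5%) the CMP mean was between the HSC and MEP means, and it was nearer to HSC for 364 (66.7%). For 190 of the 215 genes higher in MEP (88.4%) it was between them as well, nearer to HSC for 153 (71.2%). The median CMP position was 35.7% of the way from HSC to MEP for the first set and 38.1% for the second, and the genes were chosen on the outer groups, so no test is given. GMP means lay between for 294 (53.8%) and 127 (59.1%). CMP replicate 4 had a mean of 8.15 over the 15 named genes higher in MEP, against 6.61 to 7.47 on the other CMP arrays.

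The step at which the level differed varied by gene. Dntt averaged 11.21 in HSC, 10.44 in CMP and 6.66 in MEP, with CMP minus MEP at 3.77 and HSC minus CMP at 0.78, while Ltb averaged 10.04, 6.74 and 5.80, with 0.93 and 3.30. Procr was low in CMP already, at 5.50. Pf4 was as high in CMP, at 10.94, as in MEP, at 10.90, and Spi1 was at 8.70 in CMP and 9.13 in GMP. Klf1 averaged 7.31 in CMP (7.55, 6.88, 6.36 and 8.45) and 5.27, the floor, in GMP, and Mt1 averaged 11.05 in GMP. These comparisons share arrays and are given side by side only.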

How the data were processed

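Expression of 8 sorted mouse marrow samples (5 HSC enriched, 3 MEP) was compared in a fit of all 22 arrays of their experiment. The authors deposited linear intensities of 22690 probe sets, which the submitters' processing notes tie to MAS5, with the version, the arrays' scaling target and any filter not given in the sources used here. Each array was scaled to a common mean after trimming 2% at each end (factors 0.923 to 1.119, 64 control probe sets left out), values under 38.7, the 25th percentile, were raised to it, and log2 was taken. Probe sets above the median of 107.5 on at least 3 arrays were kept (13439, of which 12217 had 1 gene). The probe set with the highest mean stood for a gene. Of all probe sets 20380 had 1 gene symbol in the platform annotation, 691 several and 1555 none. Groups were compared with limma 3.58.1 in R 4.3.3 (lmFit, eBayes), two-sided, with Benjamini-Hochberg adjustment over 8422 genes, after tests on simulated data. Depth does not apply to arrays, and their number limits the precision.

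Named genes were the 15 with the largest change in each direction among called, at least 2-fold, non-overlapping genes, and members of 32 gene lists, of which 563 genes were tested. The members and lists were chosen with earlier results of these data known. Alternatives covered the floor, filter, scaling, prior, a 3'/5' covariate, the replicate number, the arrays in the fit and leaving out each array. Using MEP replicate 3 alone, and leaving out HSC, CMP and GMP replicate 1, were chosen after seeing the data. Promoter sequences are from RefSeq (GRCm38.p6). Ly6a and some other genes were not analysed here.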

Additional observations from a re-analysis of the deposited data

Results flagged for a closer look

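In 17 of 176 groups of 5 HSC values examined, 1 array lay apart from the other 4 by more than the critical value of Dixon's test. The groups were genes, besides the 3'/5' ratio and the array median, and all 17 were genes. That is 9.66% of them, where chance sets apart about 1 in 20 groups, and genes on 1 array are not independent. The 3 MEP arrays are too few for the same test.

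HSC replicate 1 stood apart for 4 genes. It was low for the immediate early gene Egr1, at 10.21, with the nearest other array at 12.20. It was high for Car1 at 6.37, the stem cell list member Clca3a1 at 6.71 and Cavin2 at 5.56, for which the other HSC arrays were at the floor.

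HSC replicate 2 was apart for the ETS factor Fli1 alone, at 7.51 against 8.72 on the nearest array.

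HSC replicate 3 held the high values of the neutrophil peptide Camp, at 11.68, the receptor Csf1r at 9.72, the iron exporter Slc40a1 at 7.09, Tspo2 at 5.63 and Gzmb at 5.53. It held the low values of Cpox at 6.91 and Csf3r at 7.66. The high values of Tspo2 and Gzmb lay close to the floor of 5.27.

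HSC replicate 4 was the low array for the mitotic kinesin Kif23 at 9.21, the replication gene Cdc6 at 7.18, the interferon-induced Iigp1 at 10.25, Myl10 at 9.09 and Foxo3 at 11.05. The gap for Foxo3 was small, with the nearest array at 11.13.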

How the results depend on the processing

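Of the 158 named genes that were called, between 146 (without MEP replicate 3) and 156 (without HSC replicate 3) kept their call when 1 array was left out. Genes called ranged from 1988 to 2719, those higher in HSC from 1069 to 1498, those higher in MEP from 919 to 1342 and those at least 2-fold apart from 637 to 860, and the lowest value of each came without MEP replicate 3. The 3'/5' difference ranged from -0.06 to 0.037. With no further scaling 735 genes were higher in MEP, and the median gene then lay 0.11 above 0. With MEP replicate 3 as the only MEP array, chosen after seeing the data, 1286 genes were called at least 2-fold apart, the lone array being assumed to vary like the other groups. In that setting Bcl11a stood at 0.025 and Hdc at 0. With no filter Col5a1 stood at 0.657, from another probe set. A fit with the replicate block called 2768 genes, of which 2546 were among the 2772. Deviations of same-numbered HSC and MEP arrays correlated at 0.353, 0.218 and 0.024 across genes, and those of other pairs at -0.377 to 0.369. These values do not settle whether arrays of a number share a source. The labels name no pairs, and the main fit did not pair the arrays. For 12 of the 2578 genes with several probe sets that passed the filter these were called in opposite directions, none of them a gene named here. Col5a1 is not counted there, because its probe set of opposite direction did not pass the filter. Signal near the floor limits the folds of low genes, which are bounds or understated.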
